A study of Mus musculus with 36 samples.

Results

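The Kv4 potassium channel complex was described here through the transcripts of 9 genes, chosen by their GENCODE symbols from the 55492 entries of a table of read counts. The set held the 3 Kv4 pore subunits Kcnd1, Kcnd2 and Kcnd3, the 4 KChIP genes Kcnip1, Kcnip2, Kcnip3 and Kcnip4, and the 2 DPP genes Dpp6 and Dpp10. All 9 were found once in the table, and all 9 were among the 20355 genes that had a mean count above 5 and were tested. The family was chosen with results of these data in view, and which values chose it was not recorded. Since Kcnd2 was among the few genes called for DEX against control, that contrast is given as a description. Its p-values are not printed, and its counts of called members are listed beside the share of all genes with nothing read from them.

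The cells were primary cortical cells of mouse embryonic day 18, sold dissociated under the name C57EDCX, and RNAseq was made from 36 libraries. Cultures were left untreated (control), treated with the glucocorticoid receptor agonist dexamethasone (DEX, 1 µM), or treated with DEX (1 µM) together with the receptor antagonist RU-486 (1 µM). Treatment began on day 11 in vitro, lasted 72 h and was replenished at 48 h. Each group had 12 libraries, 6 in each of 2 batches named in the labels, and nothing in the labels ties libraries to separate animals, so that p-values measure the spread between libraries, which may be technical.

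Kv4 channels carry the fast-inactivating A-type potassium current of neuronal dendrites and cell bodies, which opens below the action potential threshold and dampens the backward spread of spikes. Kcnd1, Kcnd2 and Kcnd3 encode the pore proteins Kv4.1, Kv4.2 and Kv4.3, which assemble as tetramers. The KChIPs are calcium-binding proteins of the neuronal calcium sensor family that bind the cytoplasmic end of the pore protein and raise its surface level, and KChIP3 is also known as DREAM, a transcriptional repressor. Dpp6 and Dpp10 encode single-pass membrane proteins related to dipeptidyl peptidases but without peptidase activity, which bring the channel to the surface and speed its gating.

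Promoter sequences are shown for Kcnd2, Kcnd3 and Dpp6, the 3 members with the highest per-length levels in control libraries, because the treatment acts on a DNA-binding receptor. They are the 250 bases before a RefSeq start on GRCm38.p6, at chr6:21215096-21215345 for Kcnd2, chr3:105451640-105451889 for Kcnd3 and chr5:27048949-27049198 for 1 of the 3 starts of Dpp6, all on the + strand. The start of Dpp6 shown is the one with a match, and the windows of its other two starts held neither motif searched. Capitals mark a match to TGTTCT, the half-site of the consensus glucocorticoid response element, on either strand.
Kcnd2: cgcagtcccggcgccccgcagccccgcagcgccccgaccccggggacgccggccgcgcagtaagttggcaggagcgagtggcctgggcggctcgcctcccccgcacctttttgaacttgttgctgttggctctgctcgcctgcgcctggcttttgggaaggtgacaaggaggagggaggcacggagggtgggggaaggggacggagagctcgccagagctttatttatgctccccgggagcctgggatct
Kcnd3: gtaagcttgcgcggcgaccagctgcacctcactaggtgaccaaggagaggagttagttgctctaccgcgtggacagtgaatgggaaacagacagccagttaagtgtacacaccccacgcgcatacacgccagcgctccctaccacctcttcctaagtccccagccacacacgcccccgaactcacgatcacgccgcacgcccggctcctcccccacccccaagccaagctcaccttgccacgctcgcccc
Dpp6: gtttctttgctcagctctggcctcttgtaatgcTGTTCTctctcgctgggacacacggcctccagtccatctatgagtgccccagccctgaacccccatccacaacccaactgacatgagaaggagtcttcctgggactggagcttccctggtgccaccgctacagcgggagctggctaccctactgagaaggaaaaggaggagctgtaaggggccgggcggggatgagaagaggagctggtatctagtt
Windows of 300 bases, from 250 before to 50 after a start, were listed for 8 of the 9 members, 15 windows in all. TGTTCT was found in 2 of the 15 windows, against 18.97% of 32851 windows of all genes. The letters ACANNNTGT, the core of the full element, which share their last 3 letters with TGTTCT, were found on either strand in 1 of the 15 windows, against 6.85% of all windows. The matches were in Dpp6 and Kcnip4. The windows of Kcnd2 and Kcnd3 held neither motif.

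The libraries held 12133485 to 82437454 counts, with a median of 24957533. A total of 3 sets of libraries stood apart, and results that rest on them are given with and without them. The first is 6 libraries of batch 2, 2 in each group, which had an RNA integrity number (RIN) of 1.4 to 2.7, against 7.4 to 8.7 in the other 12 of that batch. In batch 1 the RIN moved with treatment, at 7.8 to 9.2 in control, 3.9 to 7.8 in DEX and 5.6 to 7.9 in DEX + RU-486. The second is libraries 1, 7 and 13, 1 from each group of batch 1, set apart after their values were seen. Their values of Klf9 and Kcnip3, given below, lay outside those of the rest of batch 1. The third is libraries 35 and 36, both DEX + RU-486 of batch 2, in which the inhibitory neuron markers Gad1, Gad2, Slc32a1 and Sst summed to 101 and 115 CPM (counts per 1000000 counts of a library, its size scaled by the TMM factor of edgeR), against 292.5 to 406.5 in the other 10 batch 2 libraries of RIN 6 or above. These 2 libraries were also low in markers of the oligodendrocyte lineage, at 127 and 175 CPM against 334 to 999, and of progenitor and dividing cells, at 15.1 and 17.1 against 33.5 to 67.7. Xist exceeded the Y-linked Ddx3y in 11 of the 18 batch 1 libraries and in 0 of the 18 of batch 2. All 6 neuron markers were detected, and together they ranged from 2346 to 9876 CPM over the libraries. None of the 5 glucocorticoid receptor targets checked (Fkbp5, Tsc22d3, Sgk1, Per1 and Klf9) was called by edgeR for DEX against control over both batches. Of these targets 1 had an unadjusted p under 0.05, as did 16.9% of all genes. In batch 1, Per1 and Tsc22d3 were called higher in DEX than in control, as were 1829 of 20355 genes. In DEX + RU-486, 1 of the 5 was called higher there, as were 1408 genes. Control library 1 had 66.6 CPM of Per1 and 12.7 of Tsc22d3. The other batch 1 controls had 31.49 to 36.96 and 5.63 to 9.41. Klf9 was at 21.7, 33.9 and 21.01 CPM in libraries 1, 7 and 13, against 6.81 to 13.4 in the other batch 1 libraries. Whether the calls of these targets reflect the treatment was not tested.

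To compare members with each other, CPM was divided by the length of the merged exons of each gene. Kcnd2 had the highest per-length level in control libraries of both batches, with a median of 15.6 CPM per kb in batch 1 and 10.5 in the 4 intact control libraries of batch 2. Dpp6 was next at 11.3 and 6.41, then Kcnd3 at 5.68 and 5.16, and the ranges of these 3 genes did not overlap in either batch. Kcnip3 was the highest KChIP in both batches, at 4.36 and 2.89. In batch 1 each member from Kcnd3 down to Kcnip2 overlapped in range with the next in order. In batch 2 Kcnip1, Kcnip4 and Dpp10, at 2.26, 2.21 and 1.98, overlapped in range from each to the next. Kcnd1 was the lowest pore gene at 1.40 and 1.27 CPM per kb. Kcnip2 was the lowest member at 0.72 and 0.413, with raw counts of 18 to 310 per library, so that its values carry the largest counting error.

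**Figure D1:**
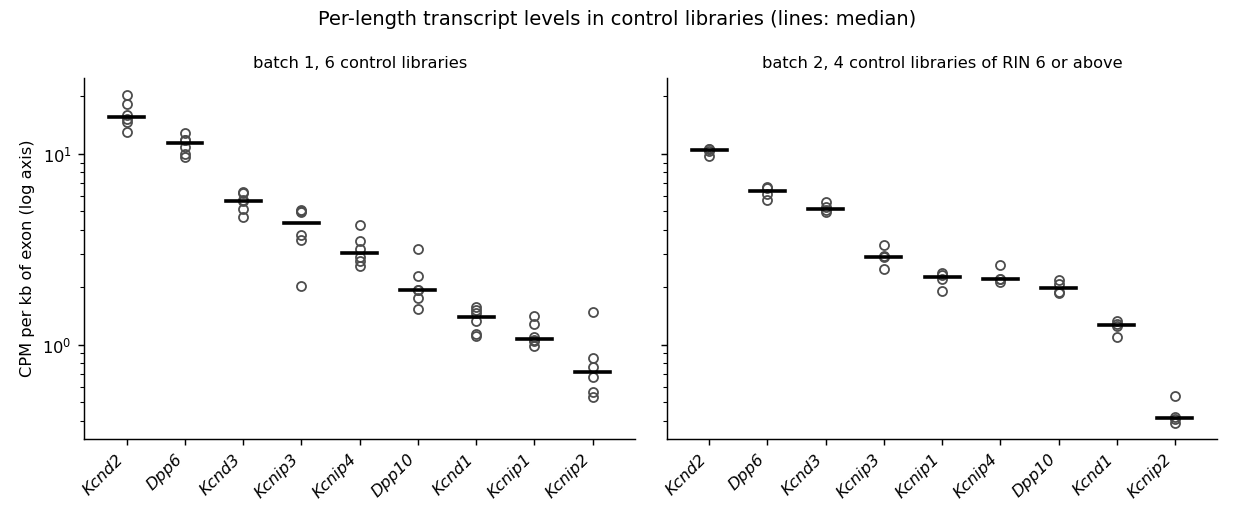
Per-length levels (CPM per kb of merged exon, log axis) of the 9 genes in the 6 control libraries of batch 1 (left) and the 4 control libraries of RIN 6 or above of batch 2 (right), ordered by their median (line), each circle being 1 library. Kcnd2, Dpp6 and Kcnd3 lead in both batches, and Kcnip1 stands higher in the order in batch 2 than in batch 1.

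Kcnd2 (chr6:21215503-21729805, + strand) is the main somatodendritic Kv4 pore gene of cortical pyramidal neurons. In batch 1 the 6 control libraries had 67.1, a median of 80.2, and 105.1 CPM at the lowest, middle and highest. The DEX libraries had 36.3, 46.0 and 51.9 CPM, and the DEX + RU-486 libraries 35.6, 47.6 and 62.9 CPM. Each of the 12 treated libraries of batch 1 thus lay below each of the 6 controls. In batch 2 the intact controls had 49.97, 53.3, 54.4 and 54.8 CPM, the intact DEX libraries 31.3, 40.6, 43.9 and 44.0, and the intact DEX + RU-486 libraries 41.4, 45.2, 49.5 and 52.1. DEX and control again did not overlap there, while DEX + RU-486 overlapped with both.

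The 2 control libraries of RIN under 3 had 36.4 and 39.9 CPM of Kcnd2, the 2 DEX libraries 24.9 and 28.9, and the 2 DEX + RU-486 libraries 30.2 and 30.4. The degraded libraries thus lay below the intact libraries of their own group, and kept the order of control above DEX. The mean of Kcnd2 in batch 1 was 83.6 ± 13.7 CPM (SD, n = 6) in control and 45.6 ± 5.61 in DEX, and in batch 2 48.1 ± 7.99 in control and 35.6 ± 8.28 in DEX, with the degraded libraries included.

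On the log2 scale, Kcnd2 was lower in DEX than in control by -0.66 (SE 0.12) over both batches, -0.84 (SE 0.13) in batch 1 and -0.41 (SE 0.18) in batch 2. With only libraries of RIN 6 or above the value in batch 2 was -0.40 (SE 0.10). At a Benjamini-Hochberg adjusted p under 0.05 in edgeR's quasi-likelihood test, 1 of the 9 members, Kcnd2, was called over both batches, against 0.0246% of all genes tested. In batch 1, 3 of the 9 members were called, all of them lower, namely Kcnd2, Kcnd3 and Dpp6, against 9.99% of all genes called lower there. In batch 2, 0 of 9 members and 0% of genes were called. Without libraries of RIN under 6, 0 of 9 members were called in batch 2, against 0.565% of genes, and 2 of 9 over both batches, Kcnd2 and Kcnd3, against 19.7% of genes.

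DEX + RU-486 was compared with the same control libraries as DEX, so that its values and p-values are not independent of those for DEX. For Kcnd2 the difference in batch 1 was -0.75 on the log2 scale (SE 0.13, edgeR adjusted p = 0.00159), and in batch 2 it was -0.21 (SE 0.18, edgeR adjusted p = 1.00). Over both batches it was -0.50 (SE 0.12) and missed the threshold (edgeR adjusted p = 0.122), whereas without libraries of RIN under 6 it was -0.48 (edgeR adjusted p = 0.00276). Of the 9 members, 2 were called in batch 1, Kcnd2 and Kcnd3, both lower, against 8.46% of all genes called lower. In batch 2 0 of 9 members were called, against 0% of genes, and without libraries of RIN under 6 again 0 of 9, against 0.00491% of genes. Over both batches 0 of 9 members and 0% of genes were called by edgeR, with 2 members, and 10.8% of genes, at an unadjusted p under 0.05. DESeq2 called 1 member, beside 0.594% of all genes. Without libraries of RIN under 6, 2 of 9 members were called over both batches, against 8.86% of genes.

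Values of the cultures moved with Kcnd2 in batch 1, and their part in the result was not tested. The 6 neuron markers summed to 3338 to 4284 CPM in control, 2498 to 3368 in DEX and 2693 to 3459 in DEX + RU-486. The 6 markers of the oligodendrocyte lineage summed to 57.6 to 269.6 CPM, 455 to 2075 and 209 to 893 in the same groups, and the 4 markers of progenitor and dividing cells to 6.49 to 30.05, 29.1 to 165.7 and 18.8 to 141.7. The highest of both sums in the treated groups were those of the 2 libraries of RIN under 6, DEX library 12 and DEX + RU-486 library 18. Without them the highest were 736 and 614 CPM for the oligodendrocyte lineage and 46.3 and 70.6 CPM for progenitor and dividing cells. The 5 astrocyte markers summed to 11.8 to 19.6 CPM in control, 16.8 to 31.1 in DEX and 15.99 to 35.5 in DEX + RU-486, and the 4 excitatory neuron markers to 294.2 to 437.8, 268.6 to 369.8 and 288.4 to 392.1. The 4 inhibitory neuron markers summed to 56.2 to 120.8 CPM in control, 71.6 to 244.3 in DEX and 74.5 to 183.3 in DEX + RU-486. The highest treated values were those of libraries 7 and 13, and without them the highest were 116.0 and 103.0 CPM. In bulk RNA, fewer cells of a type and less RNA per cell cannot be told apart. Per 1000 CPM of neuron markers, Kcnd2 was at 17.7 to 25.95 CPM in control, 12.9 to 18.97 in DEX and 12.7 to 19.9 in DEX + RU-486 of batch 1, and the groups overlapped. The lowest DEX value was that of library 12, of RIN 3.9, and the other DEX libraries were at 15.4 to 18.97. The RIN differed between these groups, so that their marker sums may not be comparable. Control overlapped with DEX through library 1 alone, and the other 5 controls were at 19.7 to 25.95, above all DEX libraries but not above all of DEX + RU-486. In the intact libraries of batch 2 the same measure was 20.2 to 21.5 in control, 13.4 to 17.7 in DEX and 16.9 to 20.6 in DEX + RU-486, where control and DEX did not overlap. With the RIN as a covariate in batch 1, Kcnd2 was lower than control by -0.58 (SE 0.16) in DEX and by -0.56 (SE 0.14, edgeR adjusted p = 0.0345) in DEX + RU-486. The RIN was 7.8 to 9.2 in these controls and 3.9 to 7.9 in the treated libraries. This fit therefore cannot fully separate RIN from treatment, and the same holds for other batch 1 values with the RIN as a covariate.

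**Figure D2:**
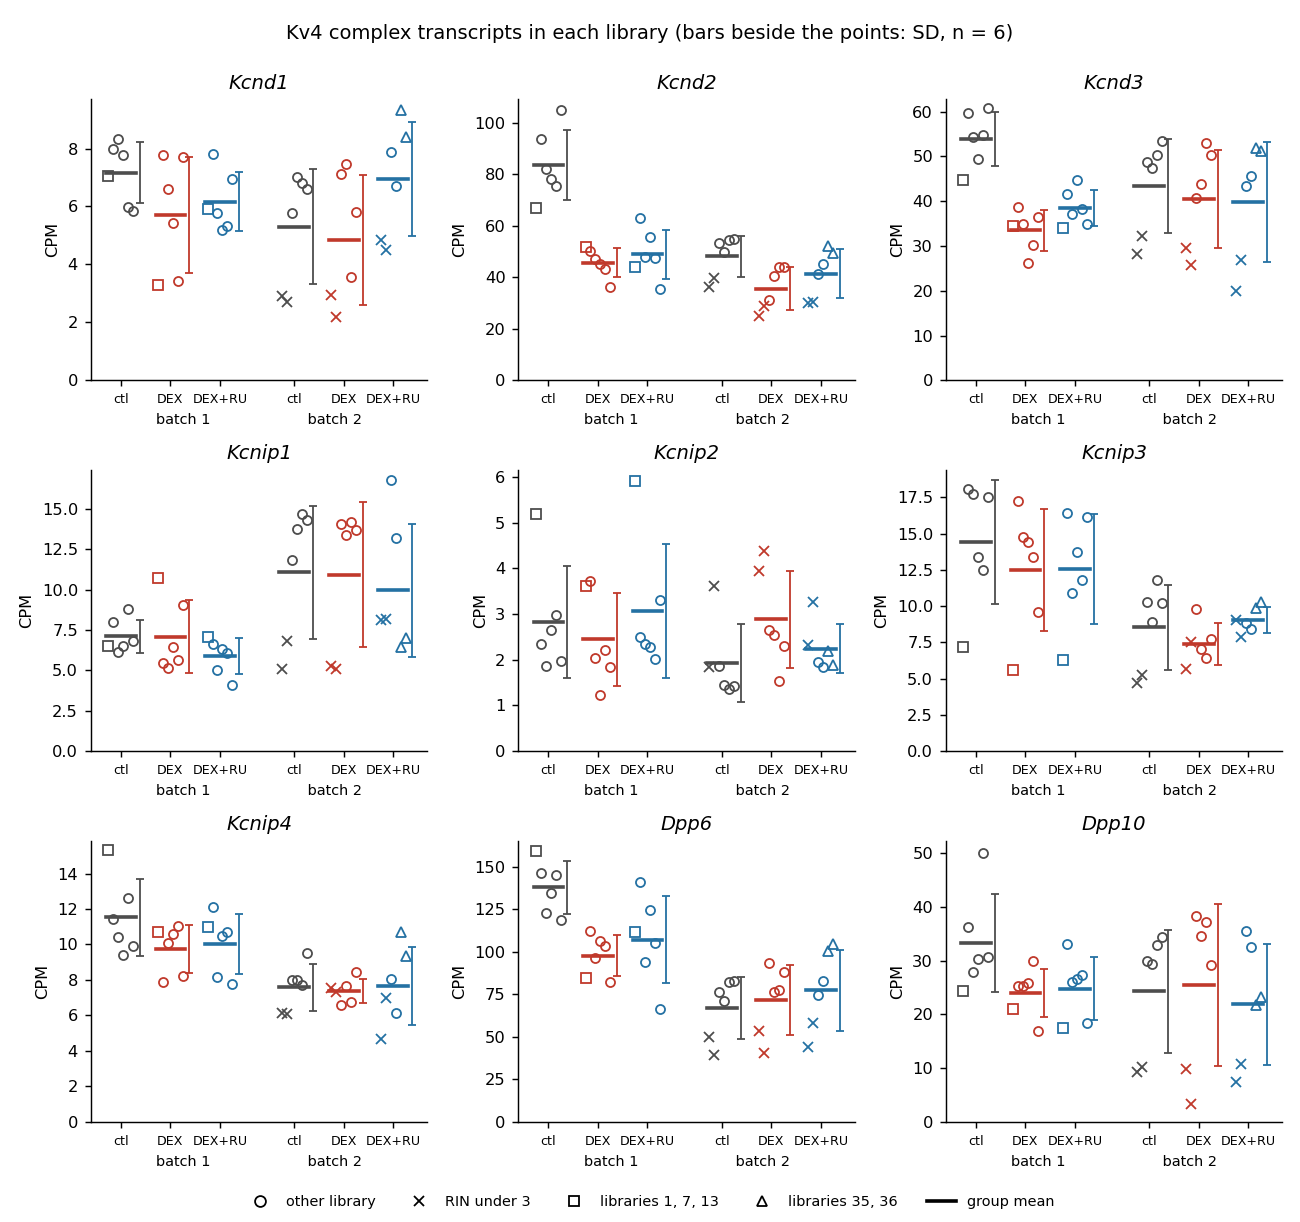
CPM of each of the 9 genes in each of the 36 libraries, by batch and group (ctl, control; DEX+RU, DEX + RU-486), with the group mean (line) and SD (bar, n = 6), and the libraries that stand apart drawn as crosses, squares and triangles. In batch 1 every control library lies above every treated library for Kcnd2 and Kcnd3, and in batch 2 the crosses lie low for most genes.

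Kcnd3 (chr3:105452330-105674002, + strand) encodes Kv4.3, which is prominent in interneurons and in several classes of principal cells. Its first 626 bases are shared with the antisense gene Kcnd3os on the other strand, which had 0 to 87 counts per library against 205 to 5700 for Kcnd3, and whether counting used strand is not given in the sources used here. In batch 1 the lowest, median and highest control libraries had 44.8, 54.5 and 60.7 CPM, the DEX libraries 26.2, 34.7 and 38.6, and the DEX + RU-486 libraries 34.1, 37.7 and 44.6. No treated library reached the lowest control, and the highest DEX + RU-486 library lay just under it.

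In batch 2 the intact controls had 47.5, 48.8, 50.2 and 53.5 CPM of Kcnd3, the intact DEX libraries 40.6, 43.7, 50.3 and 52.9, and the intact DEX + RU-486 libraries 43.5, 45.6, 51.2 and 51.9. The 3 groups overlapped. The log2 fold change for DEX against control was -0.65 (SE 0.11) in batch 1, -0.08 (SE 0.25) in batch 2 and -0.40 (SE 0.14) over both. For DEX + RU-486 against control it was -0.47 (SE 0.11, edgeR adjusted p = 0.00718) in batch 1, -0.11 (SE 0.25, edgeR adjusted p = 1.00) in batch 2 and -0.31 (SE 0.14, edgeR adjusted p = 0.407) over both. Without libraries of RIN under 6 the last value was -0.30, with an edgeR adjusted p of 0.0356.

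Kcnd1 (chrX:7822289-7838280, + strand), the X-linked gene of Kv4.1, was low in all groups, at 3.29 to 8.34 CPM in batch 1 and 2.18 to 9.34 in batch 2. In batch 1 it had means of 7.16 ± 1.05 CPM (SD, n = 6) in control, 5.71 ± 2.01 in DEX and 6.16 ± 1.02 in DEX + RU-486, which overlapped. In intact libraries of batch 2 DEX + RU-486 had 6.71 to 9.34 CPM, with the top values in libraries 35 and 36, against 5.77 to 7.01 in control. Kcnd1 was not called in any of these comparisons.

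Within a library, the ratio of pore genes needs no scaling between libraries. Per length, Kcnd2 made up 68.1% to 73.3% of the summed Kv4 pore transcripts in batch 1 controls, 57.2% to 70.5% in DEX and 58.2% to 67.7% in DEX + RU-486. The lowest treated values were those of libraries 12 and 18, of RIN 3.9 and 5.6. Without them the lowest were 64.0% in DEX and 64.7% in DEX + RU-486. In the intact libraries of batch 2 it made up 60.7% to 62.6% in control, 52.2% to 57.9% in DEX and 57.1% to 59.3% in DEX + RU-486, without overlap between control and either treated group. With the degraded libraries included, the share in batch 2 was 60.7% to 66.96% in control, 52.2% to 64.5% in DEX and 57.1% to 66.2% in DEX + RU-486, and the groups overlapped. The ratio of Kcnd2 to Kcnd3 CPM in the intact libraries of batch 2 was 1.02 to 1.09 in control, 0.772 to 0.929 in DEX and 0.952 to 1.00 in DEX + RU-486, and the degraded libraries raised the highest values to 1.29, 1.13 and 1.52. The same ratio was 1.38 to 1.73, 0.995 to 1.72 and 1.02 to 1.51 in batch 1, where all groups overlapped. Without libraries 12 and 18 the lowest ratios in batch 1 were 1.30 in DEX and 1.23 in DEX + RU-486. Kcnd2 exceeded Kcnd3 in all but 1 library of batch 1, which was library 12, of RIN 3.9.

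**Figure D3:**
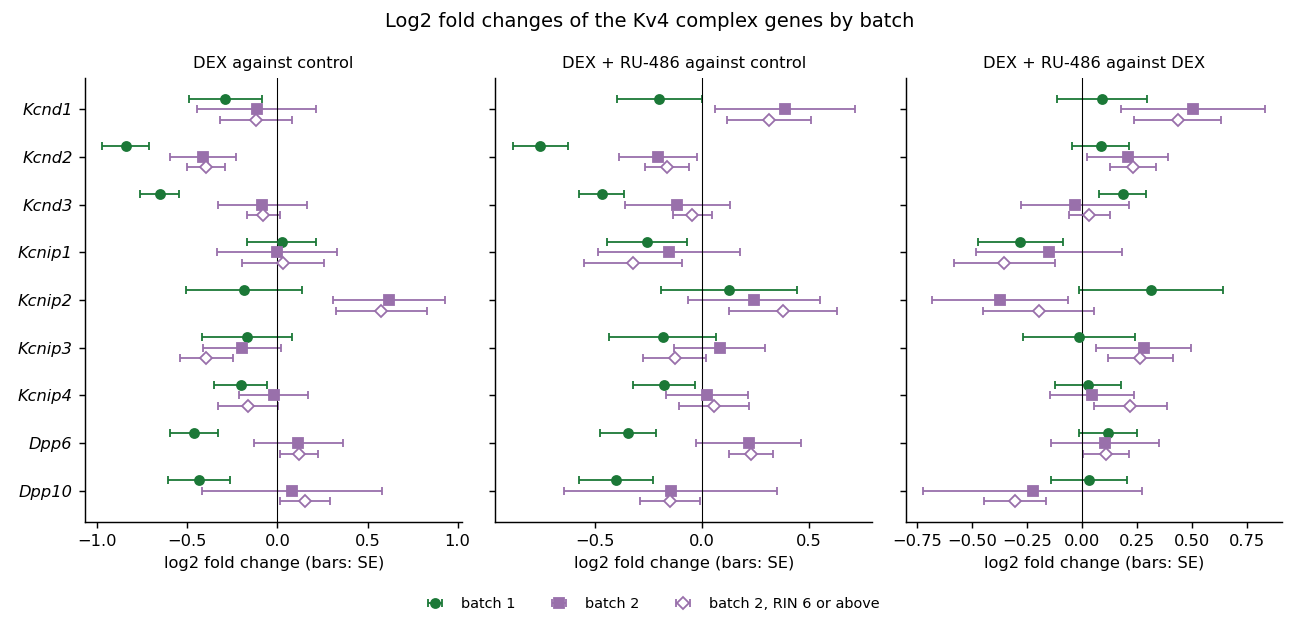
Log2 fold changes with SE (bars) of the 9 genes in the 3 comparisons, for batch 1 (circles), batch 2 (filled squares) and batch 2 without libraries of RIN under 6 (open diamonds). Kcnd2 and Kcnd3 lie farthest below 0 in batch 1 in both comparisons with control, and Kcnip2 lies above 0 in batch 2 after DEX.

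The difference between batches in the effect of each treatment was fitted as an interaction. For DEX against control it is given as a description, and it was +0.44 (SE 0.23) for Kcnd2, +0.59 (SE 0.27) for Kcnd3, +0.60 (SE 0.29) for Dpp6 and +0.82 (SE 0.45) for Kcnip2, each as batch 2 minus batch 1. Without libraries of RIN under 6 it was +0.64 for Kcnd3 and +0.58 for Dpp6. Over the 4 alternatives run it was 0.27 to 0.42 for Kcnd2, 0.34 to 0.64 for Kcnd3, 0.35 to 0.58 for Dpp6 and 0.67 to 1.01 for Kcnip2. For Dpp10 it was +0.53, and -0.13 to 0.54 over the alternatives. For DEX + RU-486 against control, 0 of 9 members were called, against 0.0835% of genes, with 1 member, and 11.9% of genes, at an unadjusted p under 0.05, and the smallest edgeR adjusted p was 0.298, for Kcnd2 at +0.56 (SE 0.23). Libraries with more Xist than Ddx3y were found in batch 1 only, and their part in these differences was not tested.

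Among the KChIPs, which bind the pore proteins from inside the cell, no gene was called in DEX against control or in DEX + RU-486 against control, in either batch or over both. Kcnip3 (chr2:127456498-127522094, - strand) had 7.21 to 18.1 CPM in control, 5.60 to 17.2 in DEX and 6.30 to 16.4 in DEX + RU-486 of batch 1. The lowest value of each group was that of library 1, 7 and 13, respectively, and the other 15 libraries of the batch lay between 9.61 and 18.1 CPM. Kcnip2 (chr19:45791839-45816061, - strand), the KChIP best known from the heart, was highest of the batch in libraries 1 and 13, at 5.18 and 5.90 CPM, and was at 3.62 CPM in library 7, against 1.22 to 3.72 CPM in the other 15. Over the 28 libraries of RIN 6 or above, batch-centred log2 CPM of Kcnip2 and Kcnip3 had a Pearson r of -0.61, which is a description over points that share batches. Without libraries 1, 7 and 13 it was -0.11 over 25 libraries, so that the relation rests on these 3.

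In batch 2 the intact controls had 1.36, 1.42, 1.45 and 1.87 CPM of Kcnip2, and the intact DEX libraries 1.54, 2.29, 2.53 and 2.65. All but 1 of the DEX libraries exceeded all controls. The log2 fold change was 0.62 (SE 0.31) in batch 2 and -0.19 (SE 0.32) in batch 1. Kcnip3 in the same intact libraries was at 8.88, 10.2, 10.3 and 11.8 CPM in control and 6.42, 7.07, 7.75 and 9.83 in DEX, with a log2 fold change of -0.39 (SE 0.15) without libraries of RIN under 6 and -0.20 (SE 0.22) with them.

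Kcnip1 (chr11:33629339-33993152, - strand), a KChIP of GABAergic interneurons in cortex, differed in level between the batches. It had 4.08 to 10.7 CPM in batch 1 and 11.9 to 16.8 CPM in 10 of the 12 intact libraries of batch 2. The other two intact libraries were 35 and 36, at 6.46 and 6.99 CPM, which were also those with low inhibitory neuron markers. The 6 degraded libraries of batch 2 had 5.07 to 8.20 CPM, within the range of batch 1. In batch 1 these markers summed to 56.2 to 244.3 CPM, and library 7, the highest of them, also had the most Kcnip1, 10.7 CPM. Per 1000 CPM of inhibitory markers, Kcnip1 was at 38.7 to 109.1 CPM in batch 1 and 34.9 to 64.1 CPM in the intact libraries of batch 2. Kcnip1 in DEX + RU-486 against control of batch 2 was -0.15 on the log2 scale (SE 0.33) with all libraries and +0.07 without libraries 35 and 36, and it was called in neither.

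**Figure D4:**
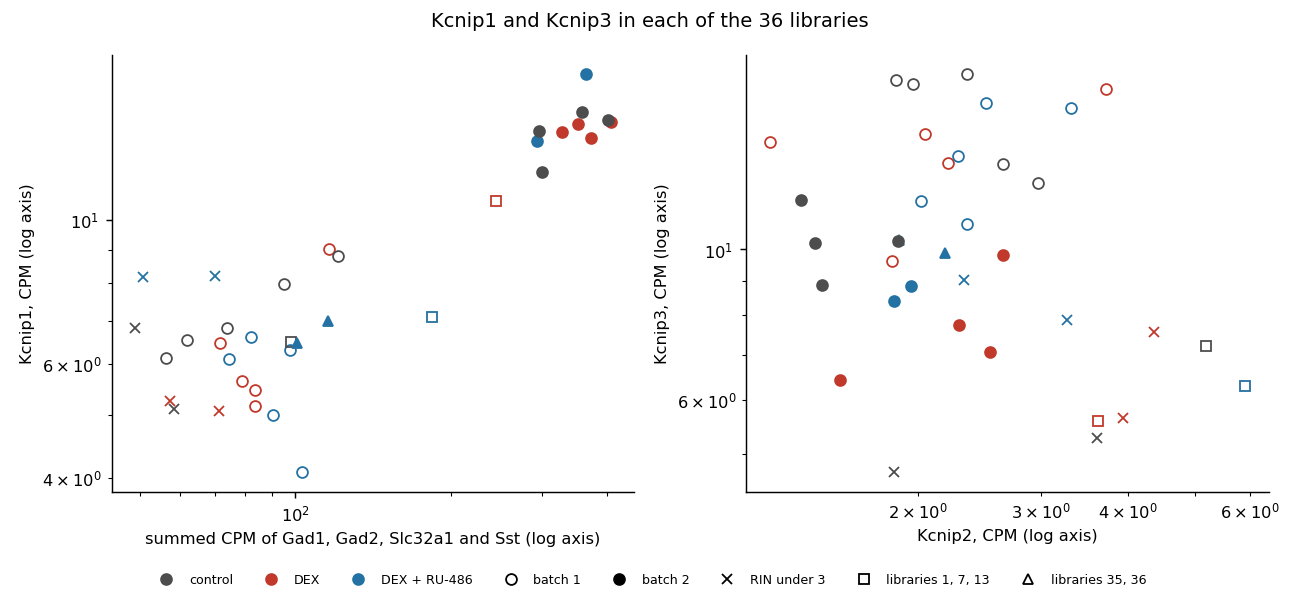
Left, CPM of Kcnip1 against the summed CPM of 4 inhibitory neuron markers, and right, CPM of Kcnip3 against Kcnip2, for each of the 36 libraries (colour, group; open, batch 1; filled, batch 2; all axes logarithmic). On the left, libraries 35 and 36 (triangles) lie among batch 1 and not with the intact libraries of batch 2, and on the right libraries 1, 7 and 13 (squares) have the lowest Kcnip3 of batch 1, and libraries 1 and 13 the highest Kcnip2.

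Kcnip4 (chr5:48389502-49524907, - strand) had 9.41 to 15.3 CPM in control, 7.91 to 11.04 in DEX and 7.78 to 12.1 in DEX + RU-486 of batch 1, and 4.66 to 10.7 CPM over batch 2. The log2 fold change for DEX was -0.20 (SE 0.15) in batch 1 and -0.02 (SE 0.19) in batch 2. Its locus holds 31 other annotated genes, 7 of them on the other strand.

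Dpp6 (chr5:26817203-27727505, + strand) encodes the partner that with the KChIPs forms the native channel of pyramidal cell dendrites. In batch 1 it had 118.7, a median of 140.1, and 159.3 CPM in control, 82.4, 99.9 and 112.2 in DEX, and 66.5, 108.4 and 140.9 in DEX + RU-486. DEX lay below control without overlap, and DEX + RU-486 overlapped with both. In intact libraries of batch 2 the values were 71.0, 76.2, 82.0 and 83.0 CPM in control, 76.7, 77.6, 88.2 and 93.7 in DEX, and 74.6, 82.9, 100.6 and 104.9 in DEX + RU-486, the last 2 being libraries 35 and 36. The log2 fold change of Dpp6 for DEX was -0.46 (SE 0.13) in batch 1 and 0.12 (SE 0.25) in batch 2. For DEX + RU-486 it was -0.34 (SE 0.13, edgeR adjusted p = 0.0803) and 0.22 (SE 0.25, edgeR adjusted p = 1.00). The value for DEX in batch 1 was -0.38 (SE 0.15) without libraries 1, 7 and 13, and -0.18 (SE 0.15) with the RIN as a covariate, and Dpp6 was called in neither.

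Dpp10 (chr1:123321471-124045559, - strand), the second DPP partner, had 24.3 to 49.9 CPM in control, 16.9 to 29.9 in DEX and 17.5 to 33.02 in DEX + RU-486 of batch 1, with overlap. Its log2 fold change for DEX in batch 1 was -0.43 (SE 0.17), and 0.12 with the RIN as a covariate, and Dpp10 was called in neither. In batch 2 it had 29.3 to 34.4 CPM in the intact controls, 29.2 to 38.3 in the intact DEX libraries, and 35.5, 32.6, 21.7 and 23.3 in the 4 intact DEX + RU-486 libraries, of which the low ones were libraries 35 and 36. Per length, the ratio of Dpp6 to Dpp10 was 3.73 to 8.39 in batch 1, 2.67 to 3.86 in the intact control and DEX libraries of batch 2, and 5.76 and 5.94 in libraries 35 and 36.

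DEX + RU-486 was compared with DEX to ask whether the antagonist changed the response. This comparison shares its DEX libraries with DEX against control, which may have been used to choose the members. Its values and p-values are therefore not independent of that contrast. Over both batches 0 of 9 members were called by edgeR, against 0% of all genes. No member had an unadjusted p under 0.05, against 2.68% of all genes, and DESeq2 called 0 members and 2 of 20355 genes. Kcnd2 was higher by 0.16 on the log2 scale (SE 0.12, edgeR adjusted p = 1.00), and Kcnd1 by 0.32 (SE 0.20). In batch 1 and in batch 2, 0 of 9 members were called, against 0% of genes in each, and the difference between batches gave 0 of 9 against 0% of genes. In intact libraries of batch 2, Kcnd2 was higher by 0.23 (SE 0.11, edgeR adjusted p = 0.228), and 0 of 9 members were called against 1.56% of all genes, with 3 members at an unadjusted p under 0.05, as were 19.3% of all genes. With libraries 35 and 36 left out as well, Kcnd2 was higher by 0.11 (SE 0.12, edgeR adjusted p = 0.887). In that setting 0 members had an unadjusted p under 0.05, against 7.65% of all genes.

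The median log2 fold change over the 9 members was -0.21 for DEX against control over both batches, where the median of all genes tested was -0.01. In batch 1 it was -0.29 beside 0.06 for DEX and -0.26 beside 0.05 for DEX + RU-486, and 8 of the 9 members were below 0 in each. In batch 2 it was -0.02 beside 0.00 for DEX, with 6 of 9 below 0, and 0.03 beside 0.01 for DEX + RU-486, with 4 of 9 below 0. These medians moved with the libraries and covariates used. With the RIN as a covariate the median for DEX was -0.04 over both batches and -0.18 in batch 1, and it was also -0.18 in batch 1 without libraries 1, 7 and 13. For DEX + RU-486 it was -0.14 in batch 1 with the RIN as a covariate. In batch 2 with the RIN as a covariate the median for DEX was 0.02, with 4 of 9 below 0. For DEX + RU-486 in batch 2 it was -0.04 without libraries 35 and 36, with 6 of 9 below 0, and -0.04 without libraries of RIN under 6, with 5 of 9 below 0. The 6 neuron markers had medians of -0.49 for DEX and -0.45 for DEX + RU-486 against control in batch 1. In batch 2 these marker medians were 0.03 and 0.06.

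RNA integrity was compared in batch 2, where each group held 2 libraries of RIN under 3 and 4 of RIN above 7, with the group as a covariate. Most members were lower in the degraded libraries, and Kcnip2 was higher. Of the members 7 of 9 were called lower, against 26.8% of all genes, and 1 of 9 higher, against 28.4%. Dpp10 fell from 21.7 to 38.3 CPM in the 12 intact libraries to 3.35 to 10.7 CPM in the 6 degraded ones, a log2 fold change of -1.92 (SE 0.19, edgeR adjusted p = 2.47e-08). Kcnd1 fell by 1.09 (edgeR adjusted p = 1.72e-05), Kcnip1 by 1.01 (0.000184), Kcnd3 by 0.86 (1.36e-07), Dpp6 by 0.84 (3.36e-07), Kcnd2 by 0.58 (9.56e-06) and Kcnip3 by 0.47 (0.0131), each on the log2 scale. Kcnip2 rose by 0.73 (SE 0.21, edgeR adjusted p = 0.00615), from 1.36 to 2.65 CPM in intact to 1.84 to 4.37 in degraded libraries. Kcnip4 had -0.34 (SE 0.15) and was not called. For 8 of the 9 members, these differences were larger than any difference between treatments over both batches, Kcnd2 being the exception. Neuron markers summed to 5652 to 9876 CPM in the degraded libraries, against 2346 to 2709 in the intact ones of batch 2. Inhibitory markers summed to 49.1 to 71.1 CPM against 100.8 to 406.5. Marker sums may thus not be comparable across integrity. Degraded RNA and a different cell content cannot be told apart here, for the markers or for the members.

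**Figure D5:**
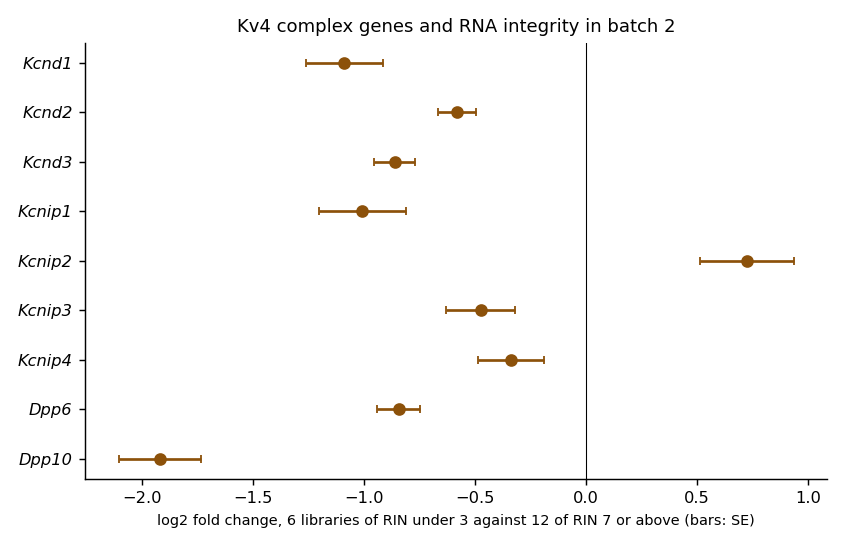
Log2 fold change with SE (bars) of each gene in the 6 libraries of RIN under 3 against the 12 of RIN above 7 in batch 2, fitted with the group as a covariate. Dpp10 lies lowest, at -1.92, and Kcnip2 is the single member above 0.

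Across the 28 libraries of RIN 6 or above, Kcnd2 and Kcnd3 varied together, with a Pearson r of 0.90 on batch-centred log2 CPM, while the other 35 pairs of members had r between -0.61 and 0.57. Of 9738 protein-coding genes with a mean of at least 5 CPM, the genes most like Kcnd2 by this measure were St8sia3, a sialyltransferase of the brain (r = 0.92), and Tmod2, a neuronal tropomodulin that caps actin filaments (r = 0.91). These correlations are descriptions over libraries that share batches, treatments and depth.

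Lists of related genes were drawn up with the members. Of 24 other Kv4 modulators and partners, such as kinases, scaffolds, auxiliary subunits and T-type calcium channels, 20 were tested, and edgeR called 0 in any of the 3 comparisons over both batches, with 6, 3 and 1 at an unadjusted p under 0.05 for DEX against control, DEX + RU-486 against control and DEX + RU-486 against DEX, where 16.9%, 10.8% and 2.68% of all genes were. In batch 1, DEX + RU-486 against control, 5 of the 20 were called, all lower, against 8.46% of all genes called lower there, among them Prkaca (-0.39), Cacna1i (-0.56), Mapk3 (-0.50) and Kcnab1 (-0.61). These encode the catalytic subunit of protein kinase A, a T-type calcium channel, the kinase ERK1 and a potassium channel beta subunit. Of the 7 other neuronal calcium sensors, all tested, 2 were called lower in that comparison, Ncald (-0.62) and Vsnl1 (-0.63). Of the 4 related dipeptidyl peptidases, 3 were tested and 0 were called, with 1 at an unadjusted p under 0.05, as were 30.2% of all genes. These genes were named after their values were seen. For DEX against control in batch 1, 5, 4 and 1 genes of the 3 lists were called, all lower, against 9.99% of all genes. The lists' median log2 fold changes for DEX + RU-486 against control in batch 1 were -0.12, -0.38 and -0.20, beside 0.05 over all genes. The 6 neuron markers had a median of -0.45 in that comparison, and 5 of them were called lower.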

How the data were processed

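RNAseq of 36 libraries was used, 12 per group and 6 per group in each of 2 batches, with group, batch and RIN from the labels. The authors deposited whole-number counts per gene and library, without normalization. The submitters' processing notes name HISAT2 2.1.0, Subread 1.5.0-p2 and GRCm38. The paper says that these libraries went through its pipeline. It describes an alignment to the genome and a specialized one to a composite genome that adds spliced ribosomal protein mRNAs. Which of them the table holds, and the annotation release, are not given in the sources used here. Labels name poly(A) selection, whereas the paper's methods name total RNA.

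Symbols, coordinates and exon lengths came from GENCODE M21, which matched 55227 of 55492 entries. The table's 5 transgene entries held 6.22e-06% of counts. For genes with a mean count above 5, the quasi-likelihood test of edgeR 4.0.16 (R 4.3.3) was run on TMM-scaled counts, all groups together, adding batch to the model, and p-values were Benjamini-Hochberg adjusted over all 20355 genes. The SE is the log2 fold change divided by the square root of F. CPM used TMM factors, and log2 CPM a prior count of 2. Alternatives included DESeq2 1.42.0, other scalings, filters and covariates, and leaving out libraries. The code was tested on simulated counts. Promoters came from RefSeq, on GRCm38.p6.

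The members and lists were chosen with earlier results of these data known. All 9 members are named, with up to 3 called genes of each list in DEX against control over both batches (there were none) and the 2 genes most like each called member. Other genes of the lists were named after their values were seen. Counting depth limits precision, most for Kcnip2.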

Additional observations from a re-analysis of the deposited data

Results flagged for a closer look

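Each member was examined in each of the 6 combinations of batch and group, 54 sets of 6 libraries, for a highest or lowest library far from the other 5. Chance alone flags about 1 in 20 sets. Of these, 4 sets were flagged, all of them for Kcnip2, the member with the lowest counts. In batch 1, control library 1 had 5.18 CPM against 1.86 to 2.97 in the other 5, and DEX + RU-486 library 13 had 5.90 CPM against 2.02 to 3.31. In batch 2, control library 20 had 3.62 CPM against 1.36 to 1.87, and DEX + RU-486 library 32 had 3.27 CPM against 1.84 to 2.33. Libraries 20 and 32 have a RIN under 3, and libraries 1 and 13 are also those with the lowest Kcnip3 of their groups. The part of RNA integrity in these values was not tested.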

How the results depend on the processing

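The limits of these values are the RNA integrity and the library depth, which both moved with treatment in batch 1. Further limits are the 2 libraries with low inhibitory markers and the unknown relation of libraries to animals. Of 87 counts of members called under alternatives, 74 stayed within 1.5 times the reported count. Many of these were 0 in both settings, in comparisons where few or no genes were called, so that the total says little about stability. For DEX against control over both batches, where 1 member was called, the count was 0 without the batch covariate, without a filter on low counts, with only the 2 groups compared, and without libraries of RIN under 6 with the RIN as a covariate, where 0% to 0.0933% of genes were called. It was 2 without libraries of RIN under 6 or, as chosen after seeing the data, under 3, where 19.7% and 19.9% of genes were called. For DEX + RU-486 against control over both batches, where 0 were called, the count was 1 with DESeq2, with the RIN as a covariate, and without libraries of RIN under 6 with the RIN as a covariate, where 0.594%, 0.761% and 1.74% of genes were called, and 2 without libraries of RIN under 6 or under 3, where 8.86% and 10.1% were. For the difference between batches in DEX against control, which is a description, the count was 0 beside 0.172% of genes, 2 without libraries of RIN under 6 beside 4.25%, and 1 beside 2.46% when libraries 35 and 36 were left out as well. The cause was not tested. Leaving out libraries 1, 7 and 13 or libraries 35 and 36 was chosen after seeing the data. Upper-quartile factors moved the median log2 fold change of all genes to 0.17 in the comparison by RIN, beside 0.04 with TMM, and Kcnip3 (-0.34) was then not called.

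For DEX against control, the sign differed in 20 of 216 fold changes under alternatives, 12 of them of Kcnip1 and the rest of Kcnip2, Kcnip3, Kcnip4, Dpp6 and Dpp10 with the RIN as a covariate, none of them of a called value. For each of the comparisons with DEX + RU-486 it also differed in 20 of 216, none of them of a called value, and these comparisons are named here by their reference. With the RIN as a covariate these were, against DEX, Dpp10 (-0.094) and Kcnip4 (-0.0021) in batch 1, Kcnip4 (-0.0040) in batch 2 and Kcnip2 (0.021) over both, and against control, Dpp10 (0.026), Kcnip2 (-0.14) and Kcnip3 (0.093) in batch 1, and Dpp6 (0.0199) and Kcnip3 (0.022) over both. Without libraries 1, 7 and 13 it was Kcnd1 (-0.0073) against DEX in batch 1. Without libraries 35 and 36 these were, against DEX, Dpp6 (-0.16), Kcnip1 (0.070) and Kcnip4 (-0.20) in batch 2, and Dpp6 (-0.018), Kcnd3 (-0.029), Kcnip2 (0.0082) and Kcnip4 (-0.068) over both, and against control, Dpp6 (-0.041), Kcnip1 (0.067), Kcnip3 (-0.0074) and Kcnip4 (-0.22) in batch 2 and Kcnd1 (-0.052) over both. With libraries of RIN under 6 left out too, they were Dpp6 (-0.10), Kcnip1 (0.11) and Kcnip4 (-0.057) against DEX, and Dpp10 (0.12), Kcnip1 (0.15), Kcnip3 (-0.25) and Kcnip4 (-0.22) against control, in batch 2. Without libraries of RIN under 6 alone they were Kcnd3 (0.034) against DEX and Kcnip3 (-0.13) against control in batch 2, and Kcnip2 (0.028) against DEX and Kcnd1 (-0.0097) against control over both. With the RIN as a covariate as well, they were Kcnip2 (0.10) and Kcnip3 (-0.10) against DEX and Dpp6 (0.075) against control. Without libraries of RIN under 3 they were Kcnip2 (0.10) against DEX and Kcnd1 (-0.0018) against control over both. With at least 10 counts in every library, and with upper-quartile factors, Kcnip3 against control over both batches was 0.0047 and 0.0016. Kcnd2 and Kcnd3 kept their sign against control under all alternatives run. No paired analysis was run, because the labels give the groups no shared library numbers and name nothing that ties libraries across groups. By position within the groups of batch 1, Ddx3y exceeded Xist in libraries 2, 8 and 14 and in libraries 6, 12 and 18. Xist exceeded Ddx3y in libraries 3, 9 and 15, in libraries 4, 10 and 16 and in libraries 5, 11 and 17. Libraries 1 and 13 had more Xist, and library 7 more Ddx3y. A block by this position was not fitted.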
